A study of Mus musculus with 14 samples.

Results

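Of the 7268 ONECUT2 binding sites listed in the authors' deposited table, 742 (10.2%) had their centre within 10 kb of the centre of another listed site on the same chromosome. Chaining these neighbours gave 359 clusters, of which 336 held 2 sites, 22 held 3 and 1 held 4, and the other 6526 sites were isolated. Membership rested on position alone. Every site considered had, however, already been selected by the authors for a difference between the conditions, since the table holds only sites with an adjusted p (FDR) of up to 0.0496. Its ranks of p imply that 94.0% of the 7734 sites tested were listed, so the direction of the clustered sites is a property of the listing and is given only as a description.

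The sites come from small intestinal organoids (line26 wild type, Lgr5GFPDTR/+, grown from 1 female mouse) profiled by ChIPmentation, in which the Tn5 transposase inserts sequencing adapters into antibody-bound chromatin. The Lgr5GFPDTR allele, which places a reporter and a toxin receptor at the stem cell gene Lgr5, was carried by both groups. One group was harvested at day 6 of 100 ng/mL RANKL. It had first received 3 days of 3 µM CHIR99021, an activator of Wnt signalling, with 1.5 mM valproic acid, which blocks histone deacetylases, followed by a day of ENR medium (EGF, Noggin, R-spondin 1), while the control group was kept in ENR medium. The contrast is therefore one of the whole protocol with ENR medium, and the effects of RANKL and of the pretreatment cannot be told apart. Each group had 3 libraries for ONECUT2, 3 for H3K27ac and 1 input, and the 3 replicates were separate differentiation experiments on organoids of the same mouse, and p-values therefore reflect how much experiments differed. H3K27ac is measured per library as read counts in 2000 bp regions. For ONECUT2 the authors' deposited table gives the mean of normalised reads in each condition and their log2 fold, with no value per library, so no error or n accompanies those values.

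ONECUT2 is a transcription factor with a cut domain and a homeodomain, related to the hepatic factor ONECUT1, and binds short sites around the letters ATTGAT or ATCGAT. H3K27ac, acetylation of histone H3 at lysine 27, marks active promoters and enhancers. Enhancers often lie near each other around genes of cell identity, and a factor may bind several of them at one locus. RANKL acts through its receptor RANK and NF-kB to turn intestinal epithelial cells into microfold (M) cells, which carry antigen from the lumen to lymphoid tissue.

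Promoter sequences are shown for the clustered sites that overlap a promoter window, because only for these could DNA at or beside the site be read. Windows ran from 250 bases before to 50 bases after a gene start in RefSeq's table for GRCm38.p6, the assembly named mm10. In all, 39 clustered sites from 35 clusters overlapped a window by at least 1 bp. The 6 below carried the highest ONECUT2 signal with RANKL, at most 1 per cluster, in descending order. Each is written 5′ to 3′ on the strand of its gene, and capitals mark any match to ATTGAT, to its reverse complement ATCAAT, or to ATCGAT, which reads the same on both strands.
Pla2g6: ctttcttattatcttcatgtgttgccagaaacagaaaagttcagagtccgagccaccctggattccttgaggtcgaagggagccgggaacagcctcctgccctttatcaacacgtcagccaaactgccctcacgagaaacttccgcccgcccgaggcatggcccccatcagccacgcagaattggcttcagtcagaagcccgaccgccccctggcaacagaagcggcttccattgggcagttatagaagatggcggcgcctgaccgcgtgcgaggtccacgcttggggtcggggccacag
Zfp277: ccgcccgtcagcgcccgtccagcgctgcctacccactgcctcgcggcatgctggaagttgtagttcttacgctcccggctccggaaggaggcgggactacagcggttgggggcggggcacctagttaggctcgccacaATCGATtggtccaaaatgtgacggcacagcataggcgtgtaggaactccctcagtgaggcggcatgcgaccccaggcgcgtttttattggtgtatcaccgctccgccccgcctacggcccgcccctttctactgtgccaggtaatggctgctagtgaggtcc
Retreg1: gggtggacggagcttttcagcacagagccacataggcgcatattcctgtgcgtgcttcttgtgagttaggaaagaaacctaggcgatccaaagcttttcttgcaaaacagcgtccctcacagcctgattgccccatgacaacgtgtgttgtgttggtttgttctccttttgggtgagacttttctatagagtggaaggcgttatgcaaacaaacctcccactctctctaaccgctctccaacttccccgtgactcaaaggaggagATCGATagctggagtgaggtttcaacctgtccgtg
Lsg1: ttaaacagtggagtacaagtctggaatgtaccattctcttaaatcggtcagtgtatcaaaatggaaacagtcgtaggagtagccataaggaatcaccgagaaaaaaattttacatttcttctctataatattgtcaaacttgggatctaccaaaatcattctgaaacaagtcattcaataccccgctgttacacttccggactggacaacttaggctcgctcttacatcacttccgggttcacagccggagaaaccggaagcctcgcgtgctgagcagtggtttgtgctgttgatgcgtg
9130008F23Rik: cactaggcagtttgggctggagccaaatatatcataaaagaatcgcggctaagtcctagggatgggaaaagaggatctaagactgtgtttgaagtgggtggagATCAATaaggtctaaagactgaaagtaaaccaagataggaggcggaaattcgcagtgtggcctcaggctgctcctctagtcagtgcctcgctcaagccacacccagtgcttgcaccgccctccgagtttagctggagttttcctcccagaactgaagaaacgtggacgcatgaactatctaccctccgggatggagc
Rps23: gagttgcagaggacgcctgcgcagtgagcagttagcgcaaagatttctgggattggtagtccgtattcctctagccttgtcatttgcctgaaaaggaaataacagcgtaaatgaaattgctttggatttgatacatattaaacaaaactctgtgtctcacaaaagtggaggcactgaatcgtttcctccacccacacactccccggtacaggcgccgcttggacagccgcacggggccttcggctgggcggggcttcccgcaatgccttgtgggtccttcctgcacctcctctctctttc

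These windows lie at chr15:79328322-79328621 (Pla2g6, a phospholipase, minus strand), chr12:40445741-40446040 (Zfp277, a zinc finger protein, minus), chr15:25940452-25940751 (Retreg1, a receptor for autophagy of the endoplasmic reticulum, plus), chr16:30587540-30587839 (Lsg1, a ribosome assembly factor, minus), chr17:40880509-40880808 (9130008F23Rik, minus) and chr13:90922872-90923171 (Rps23, a ribosomal protein, plus). Zfp277, Retreg1 and 9130008F23Rik held 1 match each, and Pla2g6, Lsg1 and Rps23 held none in the window. The sites at Lsg1 and Rps23 cover only an edge of their windows, so most of those sites was not read. By the authors' deposited table, the site at the Pla2g6 start had a mean of 238 normalised reads with RANKL and 132 in ENR, a log2 fold of 0.84. The sites at the starts of Zfp277, Retreg1, Lsg1, 9130008F23Rik and Rps23 had RANKL means of 128, 121, 110, 105 and 103 reads in the authors' deposited table, with log2 folds of 1.74, 1.84, 1.33, 1.97 and 1.60. Pla2g6 thus combined the highest RANKL mean and the highest ENR mean of the 6 with the smallest fold. Over all 51 windows that a clustered site overlapped, 19 (37.3%) held a match on either strand, against 166 of 375 windows (44.3%) overlapped by an isolated site and 8.4% of all 32851 windows of the table. Windows of one gene or of neighbouring genes can overlap each other, as at Zfp277 and Dock4, so 1 match can be counted in several windows. A match of 6 letters is a description of the sequence and not a mapped binding site.

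Within clusters, the centres of adjacent sites lay 492 to 9945 bp apart, with a median of 6046 bp over 383 pairs. The closest pair lay in Car10, chr11:93601017-93601909. Whole clusters spanned a median of 6530 bp (quartiles 4184 and 8699.5 bp) from the first base of the first site to the last base of the last, and at most 23974 bp. The spacing of all listed sites passed through the 10 kb limit without a gap: the closest pairs outside it were 10008 bp (by Gzmn) and 10053 bp (by Chrnb1) apart, and the widest inside it were 9929 bp (Rap1gap) and 9945 bp (Cyp27a1). The authors' deposited table listed RANKL means of 76.7 and 23.7 reads for the Rap1gap pair and 29.9 and 20.9 for the Cyp27a1 pair. Just outside, it listed 21.5 and 25.7 reads by Gzmn and 23.3 and 16.4 reads by Chrnb1 (the authors' deposited table).

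**Figure D1:**
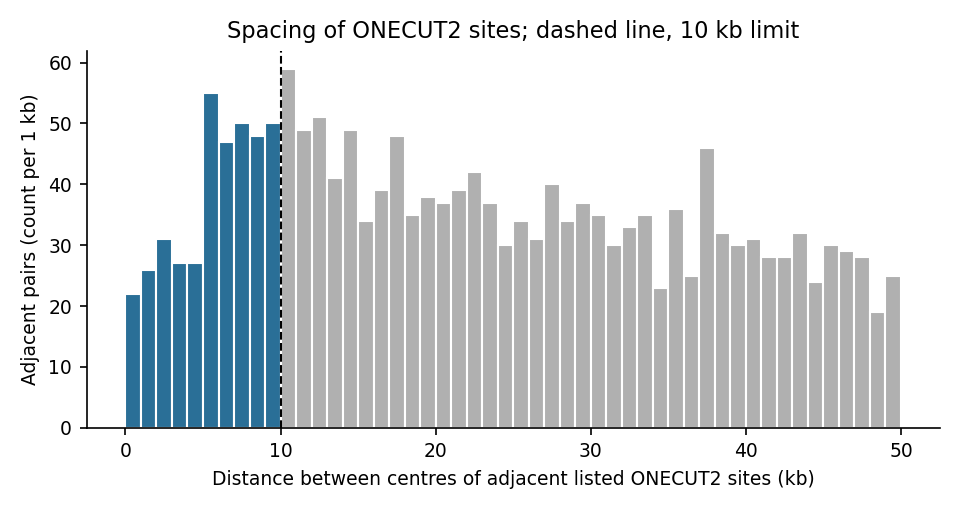
Number of pairs of adjacent listed ONECUT2 sites (y axis, count per 1 kb) by the distance between their centres (x axis, kb, up to 50), with pairs within the 10 kb limit in blue, farther pairs in grey and the limit as a dashed line. The counts run on across the limit, with 383 pairs inside it and the nearest pair outside it at 10008 bp.

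Clustered sites were spread over the genome in unequal shares. On chromosome 19 they made up 14.4% of the listed sites, on chromosome 13 13.5%, on chromosome 2 5.99% and on the X chromosome 1.24% (2 of 161 sites). Of the clusters, 285 had 1 nearest protein-coding gene (the nearest gene span within 100 kb), 48 had more than 1 and 26 had none, giving 368 distinct genes. The centre lay inside a gene span for 50.1% of clustered sites (exact 95% interval 46.5 to 53.8) and 48.8% of isolated sites (47.6 to 50.0). Exons and introns were not resolved. The exact intervals treat sites as independent and cover counting error only. A gene start lay within 1 kb of 11.3% of clustered sites (81 of 715, interval 9.10 to 13.9) and of 9.94% of isolated sites (9.21 to 10.7). At the other extreme, 8.11% of clustered sites (6.22 to 10.4) and 15% of isolated sites (14.1 to 15.9) lay over 100 kb from any start. Starts were not assigned on chromosome 18 and on scaffolds, which hold 23 and 4 clustered sites.

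ONECUT2 signal was somewhat higher at clustered than at isolated sites in both conditions, and the fold between conditions was alike. In the authors' deposited table the median clustered site had 30.9 mean normalised reads with RANKL (quartiles 21.8 and 52.9) and 8.18 in ENR (4.70 and 13.8), with a median log2 fold of 1.83. Isolated sites had medians of 25.4 reads with RANKL (18.1 and 42.6), 5.99 in ENR (3.75 and 10.7) and a log2 fold of 1.87 in the authors' deposited table. The ENR mean was over 10 reads at 39.2% of clustered and 27.3% of isolated sites, and the RANKL mean over 50 reads at 27.4% and 19.9% (authors' deposited table). All these sites were measured in the same libraries, sites of a cluster share a locus, and no per-library value was at hand, so the difference between clustered and isolated sites was described and not tested.

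Position with respect to acetylated chromatin moved with these levels. At sites that overlapped an H3K27ac region, the authors' deposited table gave RANKL medians of 37.0 (322 clustered) and 34 reads (2626 isolated) and ENR medians of 9.82 and 8.72. Outside H3K27ac regions, the RANKL medians from the authors' deposited table were 27.9 (420 clustered) and 21.7 reads (3900 isolated), with 6.60 and 4.94 in ENR. The gap in level was thus larger outside acetylated regions than at them. Within 1 kb of a gene start, clustered and isolated sites had RANKL medians of 40.8 and 31.7 reads and log2 folds of 1.63 and 1.64 in the authors' deposited table. Over 100 kb from a start the RANKL medians were 29.0 and 22.4 reads, and the log2 folds 1.88 and 2.03 (authors' deposited table).

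**Figure D2:**
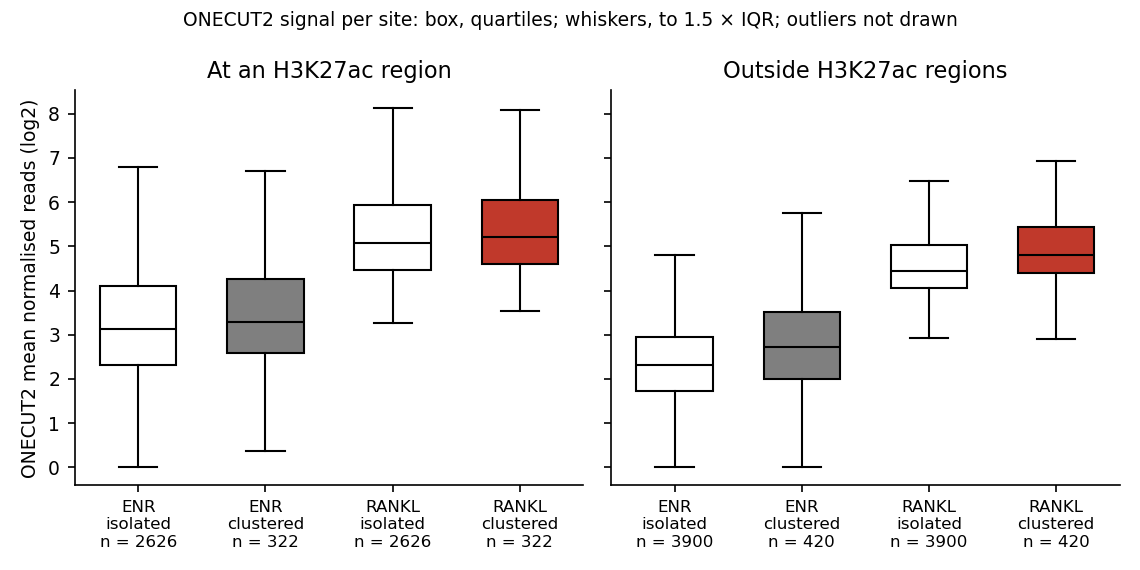
ONECUT2 mean normalised reads per site on a log2 scale (y axis), from the authors' deposited table, for isolated sites (white) and clustered sites (grey in ENR, red with RANKL), split by overlap with an H3K27ac region; boxes are quartiles with the median, and whiskers reach the last site within 1.5 times the interquartile range. Clustered boxes sit above isolated boxes in all 4 comparisons, with the wider gap outside H3K27ac regions (27.9 against 21.7 reads with RANKL).

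Level did not rise evenly as sites lay closer together. RANKL medians in the authors' deposited table were 32.0 reads where the closest centres of a cluster were up to 2 kb apart, 36.7 at 2 to 5 kb and 28.6 at 5 to 10 kb. Isolated sites with a neighbour 10 to 20 kb away had 28.0 reads in the same condition, and those over 200 kb from any other site 23.4 (authors' deposited table). Sites at 5 to 10 kb therefore resembled isolated sites with a neighbour just past the limit.

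RANKL levels of neighbours were most alike at the shortest distances. By the authors' deposited table, the Spearman correlation between the RANKL means of adjacent sites was 0.69 for 48 pairs up to 2 kb apart, 0.46 for 85 pairs at 2 to 5 kb, 0.02 for 250 pairs at 5 to 10 kb and 0.05 for 443 pairs at 10 to 20 kb. For ENR means the correlation was 0.27, 0.26, 0.22 and 0.11 at the same distances, and for log2 folds 0.12, -0.04, 0.24 and 0.12 (authors' deposited table). The pairs share libraries and local sequence composition, so these values are a description.

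Sites of one cluster were often unequal. The strongest site of a cluster had a median of 1.63 times the RANKL reads of its weakest (quartiles 1.26 and 2.56) in the authors' deposited table, and at least 2 times in 133 clusters (37.0%). The widest ratio, 15.9, was found at Cacna1d, which encodes a calcium channel subunit. Its sites had 218 and 13.7 RANKL reads in the authors' deposited table, yet the same log2 fold of 1.76. Folds within a cluster differed by a median of 0.51 and at most by 3.64 on the log2 scale (authors' deposited table).

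All 742 clustered sites were listed as higher with RANKL in the authors' deposited table, where 93.9% of the sites tested were listed in that direction. Only 7 sites were listed as lower, all of them isolated. Clustered log2 folds ran from 0.57 to 5.82, and in 320 clusters (89.1%) every site was at least 2-fold higher (authors' deposited table). The upper end is the site at Slc5a6, whose ENR mean is listed at 0 on the log2 scale, so 5.82 is not read as a measured fold. Nothing is read from these counts, since the listing selected on this contrast.

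The highest RANKL levels were found near genes of varied function. The authors' deposited table lists 327 reads at a site by Smndc1 (a splicing factor), 309 at Glis3 (a zinc finger transcription factor), 271 by Hibadh (an enzyme of valine breakdown), 238 at Pla2g6 and 233 by Cxadr (a receptor of the tight junction). In ENR the same sites had 193, 76.3, 120, 132 and 105 reads, and their log2 folds were 0.76, 2.00, 1.17, 0.84 and 1.14 (authors' deposited table). The partners of 3 of them were far weaker with RANKL, namely 29.4 reads at Smndc1, 47.8 at Glis3 and 39.9 at Cxadr in the authors' deposited table. In the Hibadh cluster, with centres 1316 bp apart, the partner had 103 reads (authors' deposited table).

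The largest folds were found at 5 sites with ENR means of at most 5.47 reads. The sites at Slc5a6 (a vitamin transporter), Gramd4, Mapre2 (a microtubule end-binding protein), Tprg and Zkscan1 had RANKL means of 66.1, 122, 51.1, 55.1 and 144 reads in the authors' deposited table. Their ENR means were 1.00, 3.00, 1.07, 1.57 and 5.47 reads (authors' deposited table). The Slc5a6 site and 5 other clustered sites are listed at 0 for ENR on the log2 scale in the authors' deposited table, so no fold is read for them. The authors' deposited table gives log2 folds of 5.07, 4.84, 4.54 and 4.54 at Gramd4, Mapre2, Tprg and Zkscan1.

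H3K27ac was then compared at the clustered sites, a readout that the choice of members did not use. Totals over the regions were 5434172 to 9160267 reads in the ENR libraries and 2745451 to 3902301 in the RANKL libraries, so every RANKL library was shallower than every ENR library. Acetylation near lineage markers was set beside the tissue label, as summed CPM (counts scaled to the TMM-normalised library size) per marker gene. It was 145 to 162 in ENR and 113 to 122 with RANKL for 10 pan-epithelial genes, all of which had a region. For mesenchymal markers the levels were 5.38 to 6.12 and 4.53 to 6.87 (9 of 12 with a region), for endothelial markers 27.4 to 29.4 and 24.9 to 27.2 (8 of 11), and for leukocyte markers 13.3 to 14.9 and 14.7 to 15.5 (8 of 10). M cell genes had 53.5 to 57.8 in ENR and 72.8 to 78.1 with RANKL (29 of 34 with a region). The level at other lineages' markers was not nil. In these bulk samples, fewer cells of a type and less acetylation per cell cannot be told apart.

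An H3K27ac region was overlapped by 322 of the 742 clustered sites, 43.4% (exact interval 39.8 to 47.1), and by 40.2% of isolated sites (39.0 to 41.4). The clustered sites fell in 301 regions, all of which passed the filter on low counts. With RANKL, 69 of these regions (22.9%) rose and 78 (25.9%) fell at a Benjamini-Hochberg adjusted p under 0.05 in edgeR's quasi-likelihood test, and 154 were not called. Of all 54765 regions tested, 14.8% rose and 21.0% fell. Among regions at isolated sites the shares were 22.6% and 26.3% of 2624, close to those at clustered sites. Median levels in ENR were 24.1 CPM at clustered sites, 16.5 at isolated sites and 8.10 in regions without a listed site, and the part of signal strength in the shares called was not tested. A change of at least 2-fold in addition to the call was seen as a rise in 27 and a fall in 14 of the 301 regions. Among all 54765 regions there were 4122 such rises (7.53%) and 2124 such falls (3.88%), and among the 2624 at isolated sites 304 and 90. The share of such rises was thus smaller at clustered than at isolated sites and that of falls larger, which was not tested. The median log2 fold was -0.0027 at clustered sites, 0.04 at isolated sites and 0.06 over all regions.

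The balance of gains and losses depended on the scaling. With library size only, 81 regions at clustered sites were called higher and 69 lower, and over all regions 9918 and 9608, against 8120 and 11523 with TMM. When the trend of log2 fold with mean signal was removed before testing, 102 regions at clustered sites were called higher and 53 lower, and over all regions 8655 and 8276. The difference of medians between clustered and isolated sites, -0.04, was as small within each experiment, at -0.0094, 0.022 and -0.0038 for experiments 1 to 3. As a share of all reads in regions, clustered-site regions held 0.949%, 0.927% and 0.947% in ENR and 0.998%, 1.01% and 0.988% with RANKL, so the groups did not overlap. Scaled by TMM, the same sums were 9964, 9339 and 9909 CPM in ENR and 9786, 9884 and 9294 with RANKL, which do overlap. Regions at isolated sites showed the same pattern, with 6.77% to 6.97% of reads in ENR and 7.20% to 7.31% with RANKL.

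Losses made up more of the calls near gene starts and gains more of those away from them. Of 60 regions at clustered sites within 1 kb of a start, 5 (8.33%) rose and 32 (53.3%) fell, with a median log2 fold of -0.31. The other regions, here and at isolated sites, are described as away from starts. They include any on chromosome 18 or scaffolds, where starts were not assigned. Distance was measured from the centre of a site and not from the region, so a region described as away may itself reach a start. Away from starts in this sense, 64 of 241 (26.6%) rose and 46 (19.1%) fell, with a median of 0.06. Isolated sites divided in the same way, with 6.88% rising and 56.6% falling of 509 regions near starts and 26.4% and 19.1% of 2115 away from them. Regions near starts were also the stronger ones, with a median of 56.9 CPM in ENR against 18.4 away from starts. With the signal trend removed, 16 of the near-start regions were called higher and 18 lower, a near-even split. Between the sites of clusters lay 67 further regions without a listed site, of which 16 (23.9%) rose and 23 (34.3%) fell. Over all regions tested the shares were 14.8% and 21.0%. These 67 regions were also stronger in ENR, with a median of 29.9 CPM against 8.43 over all regions, and the part of signal strength was not tested.

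**Figure D3:**
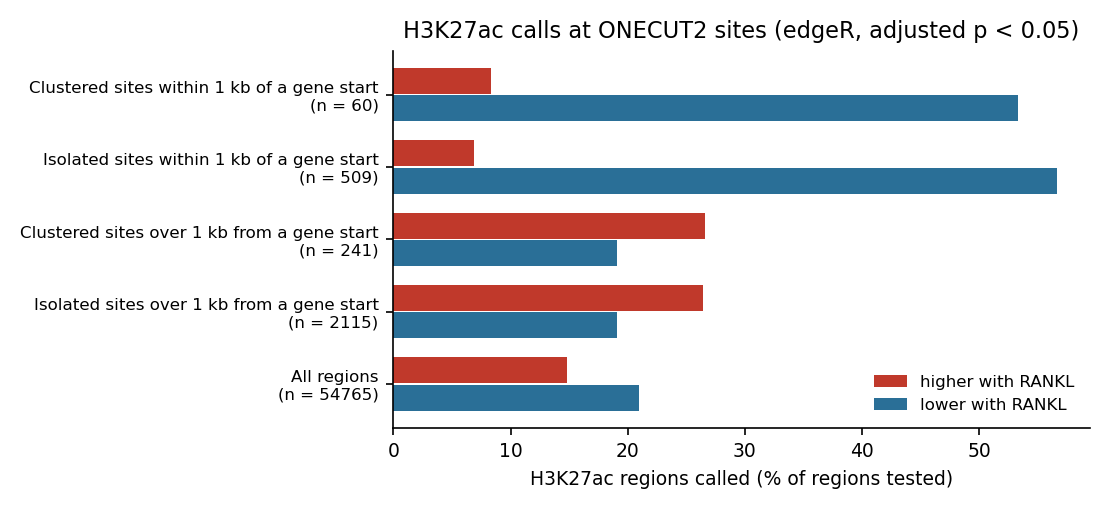
Percent of tested H3K27ac regions called higher (red) or lower (blue) with RANKL by edgeR (x axis), for regions at clustered and isolated ONECUT2 sites within and beyond 1 kb of a gene start and for all regions; n is the number of regions tested. Clustered and isolated sites show near-equal bars at each distance (53.3% and 56.6% lower near starts, 26.6% and 26.4% higher away from them). Regions on chromosome 18 and scaffolds, where starts were not assigned, count as beyond 1 kb. Distance is that of the site centre, not of the region.

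Counts were then summed over the regions that the sites of a cluster overlapped, so that each cluster had 1 value and error. Regions between the sites that held no listed site were not included. At least 1 site lay in a region in 246 clusters (68.5%), all of them tested, and in none in 113. Every site lay in a region in 66 clusters, and all sites shared 1 region in 19. In 180 clusters only some of the sites lay in a region, so the value covers a part of the cluster. Of the 246 clusters, 57 (23.2%) rose, 67 (27.2%) fell and 122 were not called, where 14.8% and 21.0% of all units in that fit were called. Scaling by library size gave 70 higher and 60 lower, and removal of the signal trend 86 and 44, settings in which the calls over all regions moved toward gains as well. The clusters that rose lay a median of 18.5 kb from a gene start, and 6 of the 55 with a distance (10.9%) had a site within 1 kb of one. Those that fell lay a median of 1.60 kb away, and 31 of 65 (47.7%) had a site that close. Median ONECUT2 log2 folds from the authors' deposited table were 2.31 in clusters whose acetylation rose, 1.85 in those not called, 1.58 in those that fell and 1.99 in those without a region. Across the 246 clusters, the Spearman correlation between the ONECUT2 log2 fold of the authors' deposited table and the H3K27ac log2 fold was 0.45. The points share libraries and base composition, so it is a description.

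Where a cluster held several regions, calls in opposite directions were few. The Spearman correlation between the H3K27ac log2 folds of the 2 regions of a cluster was 0.44 over 51 clusters, given as a description. Of 53 such clusters, 5 had all regions higher, 6 all lower, 22 some called in 1 direction, 17 none called and 3 had calls in both directions. The 3 with opposite calls lay by Nhsl1, which encodes an actin regulator, Rbis, which encodes a ribosome assembly factor, and Arap2, which encodes a GTPase-activating protein. At Arap2 the region chr5:62755085-62757085 had 8.50, 7.37 and 5.81 CPM in ENR and 22.1, 14.8 and 16.4 with RANKL. The region chr5:62765234-62767234 of the same cluster had 55.7, 52.2 and 46.7 CPM in ENR and 39.3, 41.1 and 37.6 with RANKL. Groups did not overlap in either region, and the log2 folds were 1.28 ± 0.22 (SE, edgeR adjusted p = 1.11e-07) and -0.39 ± 0.12 (adjusted p = 0.0042). The Nhsl1 regions had log2 folds of -0.48 and 0.44, and those at Rbis -0.46 and 0.40, with edgeR adjusted p values of 0.0099, 0.042, 0.00026 and 0.0053 in that order.

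The only cluster of 4 sites lay beside Alpi and reached across Akp3, which both encode intestinal alkaline phosphatases of the enterocyte brush border, at chr1:87104962-87128935. From left to right its sites had 21.6, 55.0, 15.8 and 37.1 RANKL reads and 5.16, 5.09, 3.4 and 1.52 ENR reads in the authors' deposited table. The log2 folds in the authors' deposited table were 1.93, 3.24, 2.05 and 3.99. The first pair of sites lay 3.56 and 11.4 kb from the Alpi span with no H3K27ac region at them, and the centre of the last lay 0.007 kb past the far end of the Akp3 span. H3K27ac summed over the regions at the other pair was 6.96, 9.13 and 10.1 CPM in ENR and 40.3, 41.4 and 30.9 CPM with RANKL. The RANKL libraries all lay far above the ENR libraries, a 4.22-fold rise (log2 fold 2.08 ± 0.17 SE, edgeR adjusted p = 2.29e-30). The H3K27ac region next to Alpi itself, which held no listed site, was not called.

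**Figure D4:**
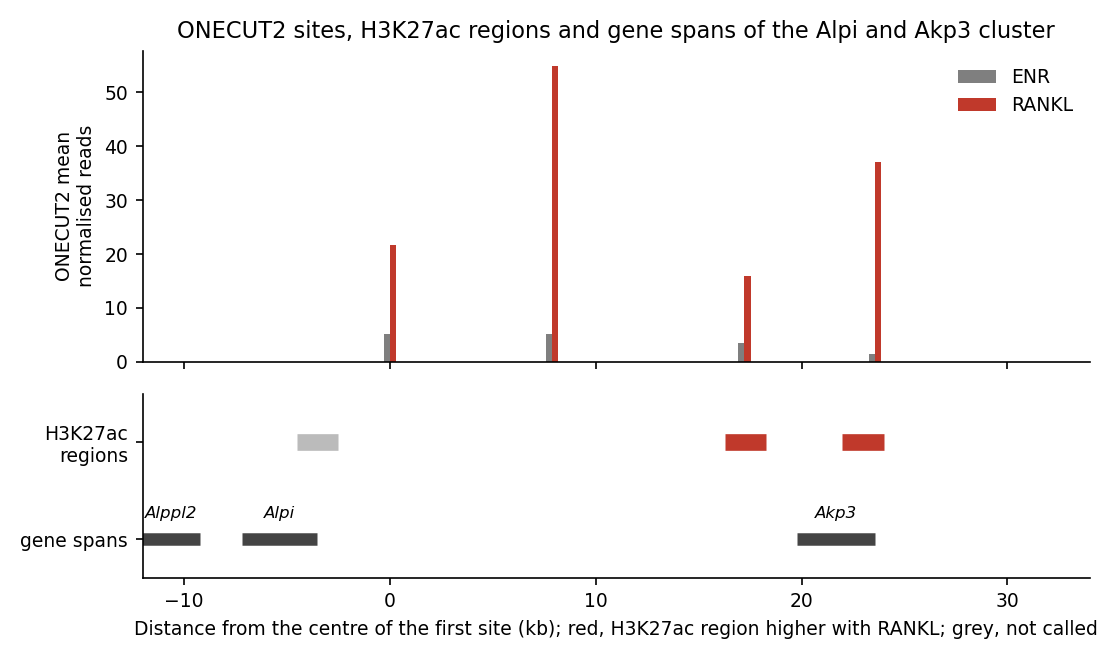
Map of the 4-site cluster by distance from the centre of the first site (x axis, kb): above, ONECUT2 mean normalised reads per site in ENR (grey) and with RANKL (red), from the authors' deposited table; below, H3K27ac regions (red, higher with RANKL; grey, not called) and gene spans. The first 3 sites lie between the Alpi and Akp3 spans and the last at the far end of Akp3, the second site is the tallest at 55.0 reads, and both red regions lie at the Akp3 end.

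The 9 clusters of 3 sites with the most RANKL signal divided by acetylation. At Zkscan1, a zinc finger gene, the authors' deposited table gave 144, 29.0 and 62.1 RANKL reads. Its region held 5.02, 3.08 and 4.5 CPM of H3K27ac in ENR and 15, 18.7 and 16.4 with RANKL, without overlap (log2 fold 2.04 ± 0.26 SE, edgeR adjusted p = 2.93e-13). Gramd4, which encodes a GRAM domain protein, had 122, 56.0 and 31.2 RANKL reads in the authors' deposited table, all inside the gene span at chr15:86061821-86075736. Its H3K27ac was 51.0, 57.1 and 48.9 CPM in ENR and 111, 117 and 116 with RANKL, again apart (log2 fold 1.12 ± 0.11, edgeR adjusted p = 7.51e-22). The Gramd3 cluster also rose, by less: 58.5, 54.0 and 60.0 CPM became 87.5, 76.7 and 72.3 (log2 fold 0.45 ± 0.11, edgeR adjusted p = 0.00025).

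In 2 of these clusters acetylation fell. By Abt1 and Btn1a1 (a butyrophilin gene) it was 35.6, 33.8 and 36.9 CPM in ENR and 21.1, 18.1 and 20.7 with RANKL (log2 fold -0.82 ± 0.14, edgeR adjusted p = 1.64e-07). By Dnmbp and Cpn1, which encodes the catalytic chain of carboxypeptidase N, it was 53.9, 50.7 and 50.6 CPM in ENR and 34.3, 35.9 and 24.4 with RANKL (log2 fold -0.73 ± 0.12, edgeR adjusted p = 6.23e-08). Groups did not overlap in either cluster. Their ONECUT2 sites were nevertheless listed as higher with RANKL, with log2 folds of 1.05, 1.92 and 1.66 by Abt1 and Btn1a1 and 1.08, 1.35 and 1.27 by Dnmbp and Cpn1 in the authors' deposited table.

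The clusters by Sult6b2 and St8sia1 and by Nr5a2 were not called. By Sult6b2 and St8sia1 the ENR libraries held 21.1, 18.4 and 20.1 CPM and the RANKL libraries 21.1, 19.9 and 18.6 (log2 fold 0.0037 ± 0.17, edgeR adjusted p = 0.99), which overlap. The clusters by Krt20 and Tspan8 held no H3K27ac region at any site. At Krt20, which encodes a keratin of mature enterocytes, the authors' deposited table nonetheless gave 122, 59.9 and 20.2 RANKL reads and 40.6, 4.89 and 4.09 ENR reads. At Tspan8, which encodes a tetraspanin of the cell surface, the RANKL means were 23.4, 77.7 and 17.3 and the ENR means 3.09, 8.22 and 5.11 (authors' deposited table).

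Besides Alpi and Akp3, the clusters that rose with the smallest adjusted p were those by Hydin (a protein of motile cilia), Slmap (a membrane-associated protein), Depdc1a and Cxcl16. Inside the Hydin span, chr8:110315892-110322583, acetylation was 4.44, 8.25 and 4.5 CPM in ENR and 48.6, 50.1 and 38.3 CPM with RANKL (log2 fold 2.88 ± 0.17 SE, edgeR adjusted p = 3.01e-52). Its ONECUT2 sites were among the weaker ones, at 19.1 and 14.4 RANKL reads in the authors' deposited table. By Slmap the levels were 3.48, 5.83 and 5.81 CPM in ENR and 33.9, 33.2 and 29.7 with RANKL (2.63 ± 0.19, edgeR adjusted p = 7.51e-35). By Depdc1a they were 3.09, 4.73 and 3.00 CPM in ENR and 28.9, 32.3 and 24.4 with RANKL (2.90 ± 0.22, edgeR adjusted p = 4.25e-34). In these 3 clusters a weakly acetylated stretch in every ENR library was well acetylated in every RANKL library.

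Cxcl16 encodes a chemokine of M cells and other epithelia. Its sites, at chr11:70457413-70459185 inside the gene span, had 59.0 and 109 RANKL reads and 2.74 and 16.8 ENR reads in the authors' deposited table. H3K27ac there was 56.8, 52.0 and 59.3 CPM in ENR and 147, 140 and 143 with RANKL (log2 fold 1.36 ± 0.11, edgeR adjusted p = 3.70e-31). Unlike the Hydin, Slmap and Depdc1a clusters, this one was already acetylated in ENR. The groups were fully apart, as is likely in clusters chosen by the smallest adjusted p.

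The 5 clusters that fell with the smallest adjusted p lay by Hcar2, Efna4 and Adam15, Ppat and Paics, Cep72, and Slc25a42. By Hcar2, the niacin receptor gene, H3K27ac was 45.8, 53.7 and 51.8 CPM in ENR and 15.4, 15.1 and 11.1 with RANKL (log2 fold -1.90 ± 0.15 SE, edgeR adjusted p = 1.77e-32). By Efna4 and Adam15, an ephrin ligand and a cell-surface metalloprotease, it was 54.1, 51.0 and 48.4 CPM in ENR and 20.0, 10.6 and 17.1 with RANKL (-1.69 ± 0.14, edgeR adjusted p = 3.87e-28). At Ppat and Paics, paired genes of purine synthesis, it was 62.2, 56.8 and 63.0 CPM in ENR and 27.1, 30.5 and 26.0 with RANKL (-1.12 ± 0.12, edgeR adjusted p = 1.02e-16). Each RANKL library lay below each ENR library in all 3 clusters, which were chosen by adjusted p in the same libraries. Their ONECUT2 sites were listed as higher, with log2 folds of 1.09 and 1.76, 0.90 and 1.13, and 1.59 and 2.08 in the authors' deposited table. Cep72, a centrosome gene, and Slc25a42, which encodes a mitochondrial coenzyme A carrier, had log2 folds of -1.26 ± 0.15 and -1.03 ± 0.12 (edgeR adjusted p = 1.97e-15 and 3.45e-15).

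**Figure D5:**
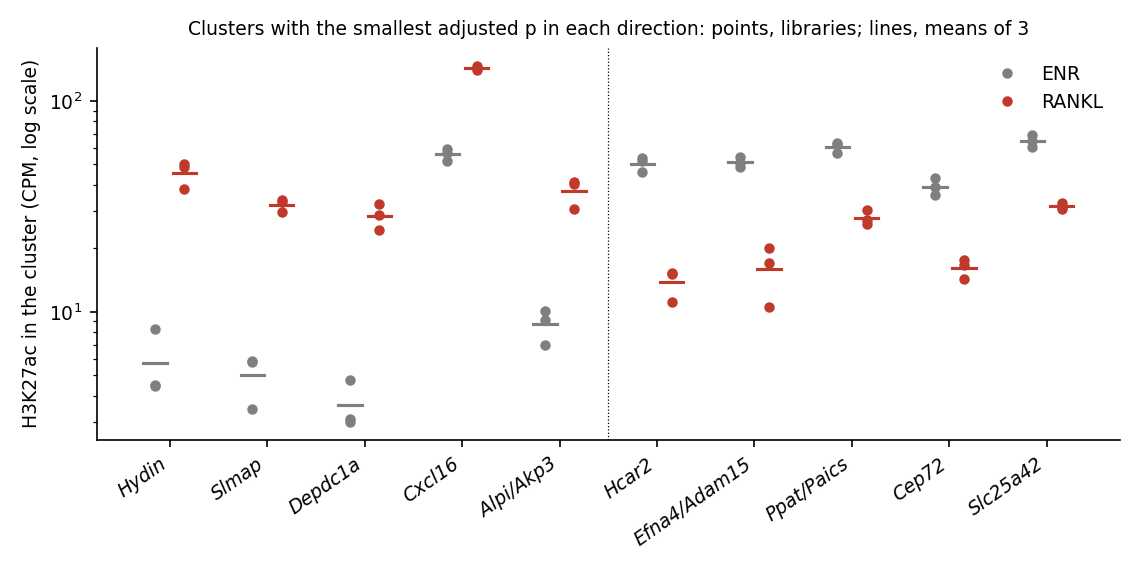
H3K27ac in CPM on a log scale (y axis) in each of the 3 ENR (grey) and 3 RANKL libraries (red), with lines at the means, for the 5 clusters called higher (left of the dotted line) and the 5 called lower (right) with the smallest adjusted p. No cluster shows overlap between the conditions, which follows from choosing them by adjusted p in these same libraries. Hydin, Slmap and Depdc1a start lowest in ENR, at 3.00 to 8.25 CPM.

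The clustered sites were nearest to at most 5 genes in each of 18 lists drawn up for this tissue and treatment. Clustered sites had 368 of 21900 protein-coding genes (1.68%) as their nearest gene, and listed sites of any kind 20.7%. Among M cell genes 2 of 34 had a clustered site, Cxcl16 and Tnfrsf11a, and 13 had any listed site. Among genes of NF-kB and RANK signalling 2 of 31 had one, Nfkbiz and again Tnfrsf11a. The enterocyte list had 2 of 44 (Krt20 and Alpi), stem cell and Wnt target genes 2 of 28 (Rnf43 and Hopx), and the intestinal transcription factors 5 of 37. Of AP-1, NFAT and ETS factors 1 of 26 had one (Ets2), of goblet cell genes 1 of 18 (Spink4), of Notch and BMP genes 1 of 24 (Bmpr1a), and of fetal and YAP target genes 1 of 22 (Areg). Cdh1 (E-cadherin) was the 1 gene among 21 of tight junctions and adhesion and among 10 pan-epithelial markers. The cell cycle, enteroendocrine, tuft, Paneth, mesenchymal, endothelial and leukocyte lists had none. Over the 18 lists the share ran from 0% to 13.5% (intestinal transcription factors), where it was 1.68% of all genes. The lists hold at most 44 genes, so 1 gene with a clustered site already places a list above 1.68%. Nothing is therefore read from the lists with such a gene, which started at 3.85% (AP-1, NFAT and ETS factors). Shares with any listed site ran from 10% of leukocyte markers to 78.4% of intestinal transcription factors and 80% of pan-epithelial markers. The lists are short, and whether they differ from all genes was not tested.

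Tnfrsf11a encodes RANK, the receptor of RANKL. Both sites of its cluster, chr1:105784640-105794858, lay inside the gene span at H3K27ac regions, with 17.6 and 25.0 RANKL reads and 2.04 and 4.03 ENR reads in the authors' deposited table. H3K27ac was 59.5, 46.4 and 62.4 CPM in ENR and 111, 120 and 97.9 with RANKL, with no overlap (log2 fold 0.97 ± 0.11, edgeR adjusted p = 1.14e-16). Nfkbiz, which encodes a nuclear regulator of NF-kB, had stronger ONECUT2 signal, 101 and 65.6 RANKL reads in the authors' deposited table. Its H3K27ac was 34.2, 29.5 and 28.7 CPM in ENR and 32.1, 37.7 and 29.7 with RANKL, with overlap, and was not called (log2 fold 0.11 ± 0.13, edgeR adjusted p = 0.56). With the signal trend removed it was called, at 0.41 (edgeR adjusted p = 0.0065).

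Among the transcription factors, Gata4 had 2 clusters of 2 sites each inside its span. At chr14:63245995-63252730 acetylation rose from 106, 93.0 and 107 CPM in ENR to 146, 149 and 137 with RANKL (log2 fold 0.51 ± 0.10, edgeR adjusted p = 1.04e-05). At chr14:63226261-63231762 it was 60.9, 60.1 and 63.0 CPM in ENR and 76.8, 74.9 and 67.3 with RANKL, without overlap but not called (0.25 ± 0.11, edgeR adjusted p = 0.066). Scaling by library size only, removal of the signal trend, and omission of RANKL replicate 3 each brought that cluster past the threshold, at 0.34, 0.48 and 0.31 (edgeR adjusted p = 0.0018, 1.96e-07 and 0.045).

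Nr5a2, which encodes the nuclear receptor LRH-1, had 3 sites 37.4 to 50.3 kb from its span, with 15, 52.8 and 77.8 RANKL reads in the authors' deposited table. H3K27ac there overlapped between conditions, at 15.5, 17.7 and 10.9 CPM in ENR and 13.6, 23.6 and 16.9 with RANKL (0.27 ± 0.18, edgeR adjusted p = 0.25). Ets2, an ETS factor, was not called (0.20 ± 0.11, edgeR adjusted p = 0.14) but passed with library size only and with the trend removed (0.30 and 0.42, edgeR adjusted p = 0.0049 and 1.46e-06). The cluster of Creb3l3, a factor of lipid metabolism, and its neighbour Thop1 was not called (0.12 ± 0.22, edgeR adjusted p = 0.72). The fifth transcription factor, Klf3, named here because the count is small, had 1 clustered site with a RANKL mean of 25.7 reads in the authors' deposited table, and its cluster held no H3K27ac region.

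For the remaining list genes, acetylation fell or was not called. By Areg, an EGF receptor ligand, it was 54.1, 51.0 and 55.7 CPM in ENR and 25.7, 31.1 and 36.2 with RANKL, without overlap (log2 fold -0.76 ± 0.12, edgeR adjusted p = 1.25e-08). At Hopx, a gene of reserve stem cells, it was 43.7, 40.9 and 43.3 CPM in ENR and 26.4, 29.0 and 34.2 with RANKL (-0.49 ± 0.13, edgeR adjusted p = 0.0006). The groups at Hopx did not overlap, but with the signal trend removed the call was lost (-0.17, edgeR adjusted p = 0.30). By Spink4, a goblet cell peptide, RANKL replicate 2 had 18.1 CPM against 7.14 and 9.40 in the other RANKL libraries and 11.2 to 11.4 in ENR, and the cluster was not called (0.03 ± 0.22, edgeR adjusted p = 0.94). The sites at Rnf43 (an inhibitor of Wnt signalling), Bmpr1a (a BMP receptor) and Cdh1 held no H3K27ac region. At Rnf43 and Bmpr1a the sites of a pair were nearly equal, with 63.7 and 60.7 and with 21.6 and 21.0 RANKL reads in the authors' deposited table, whereas those at Cdh1 had 114 and 16.1 (authors' deposited table).

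Some genes had several clusters, and those with 4 or more clustered sites are named here although they were chosen after their values were seen. Rad51b, a gene of homologous recombination with 14 listed sites, had 8 clustered sites in 3 clusters. Slc30a10, a manganese exporter gene, had 5, and Tm4sf20, Adgrl3, Maml3, Gata4, Csl, Frmd4b and Cd47 had 4 each in 2 clusters. Clusters of one gene did not always move alike. At Slc30a10 the cluster chr1:185448586-185463352 rose from 17.6, 16.9 and 12.6 CPM in ENR to 43.9, 48.3 and 48.2 with RANKL (log2 fold 1.57 ± 0.14, edgeR adjusted p = 6.32e-26). Its other cluster had 4.83, 7.59 and 6.94 CPM in ENR and 5.71, 10.9 and 6.51 with RANKL, which overlap, and was not called (0.23 ± 0.29, edgeR adjusted p = 0.57). By Tm4sf20, a tetraspanning membrane protein, one cluster rose (0.27 ± 0.11, edgeR adjusted p = 0.033) and the other fell (-0.70 ± 0.24, edgeR adjusted p = 0.015). Both clusters at Maml3, which encodes a Notch coactivator, fell (-0.73 ± 0.12 and -0.55 ± 0.12, edgeR adjusted p = 5.57e-09 and 2.92e-05). At Cd47, which encodes a surface signal that inhibits phagocytosis, one cluster rose (0.88 ± 0.27, edgeR adjusted p = 0.005) and the other held no region. At Rad51b the regions chr12:79531355-79533355 and chr12:79858947-79860947, in different clusters, rose (log2 folds 0.54 and 0.51, edgeR adjusted p = 0.0013 and 6.59e-05). Its other regions at clustered sites were not called. H3K27ac at Adgrl3, Csl and Frmd4b is not given here, so the genes shown are examples. Differences between clusters of one gene were not tested.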

How the data were processed

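H3K27ac was measured in 3 RANKL and 3 ENR libraries, grouped by title. The authors deposited raw counts, whole numbers of reads, for 55050 regions of 2000 bp. For ONECUT2 the authors deposited a DiffBind comparison table with log2 means per condition, a log2 fold change, and a p-value and FDR per site, per the file headers. Per the submitters' processing notes the build is mm10 and DiffBind was used, with aligner, peak calling and ONECUT2 normalisation not given in the sources used here. Inputs, the authors' standardised H3K27ac table and per-library ONECUT2 values were not used here. Coordinates are printed as deposited, so a start may count from 0 or from 1.

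Sites were chained by a Python script (3.11.15) where centres lay at most 10 kb apart. Region counts, and counts summed per cluster with all other regions kept as units, were tested with edgeR 4.0.16 (R 4.3.3, TMM, filterByExpr, quasi-likelihood test). P-values were adjusted over 54765 regions or 54710 units. On simulated data with 200 changes of 2-fold, each fit recovered 46% of them. False calls made up 2.13% of the calls in the region fit and 7.07% in the cluster fit. A cluster or region not called may therefore still have changed. The standard error is that of the fitted log2 fold. Libraries of a group differed by more than sampling noise (chi-square per degree of freedom 1.80 to 2.06) and none was counted as a repeat. The labels' descriptions number both arms by experiment, yet deviations from the group means correlated at 0.015, -0.026 and -0.007 between same-numbered libraries. Genes came from RefSeq tables as the nearest protein-coding span within 100 kb, which need not be the gene a site acts on. Named clusters were the 10 with most sites (ties by summed RANKL reads), the 5 called in each direction with the smallest adjusted p, the clustered sites with the 5 highest RANKL means and the 5 largest folds, up to 4 genes per list, and the pairs nearest the distance limit. Members, lists and rules were chosen with earlier results of these data known. Alternatives were other distances (5 and 20 kb), FDR under 0.01, other overlap rules, DESeq2 1.42.0, library size only, no filter, removal of the signal trend, a replicate block and omission of each replicate.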

Additional observations from a re-analysis of the deposited data

How the results depend on the processing

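The distance limit set the number of members: 5 kb gave 265 clustered sites in 132 clusters and 20 kb gave 1546 in 720. At 5 kb, 14 regions at clustered sites rose and 33 fell (0 and 16 near gene starts, 14 and 17 away from them), 14 clusters rose and 33 fell, and the median H3K27ac log2 fold differed from that at isolated sites by -0.12 (-0.04 as reported). At 20 kb, 156 regions rose and 171 fell (10 and 63 near starts, 146 and 108 away), and 125 clusters rose and 132 fell. These region calls are those of the reported fit, in which 14.8% of all regions rose and 21.0% fell. The number of regions at clustered sites is not given for these limits, so the counts are not read against those shares. A site centre within 1 kb of a region, in place of an overlap, raised the share at H3K27ac regions to 54.0%. With library size only, 10 near-start regions rose, and the balance turned to 81 regions higher and 69 lower and 70 clusters higher and 60 lower. With the signal trend removed, 16 near-start regions rose and 18 fell, 86 clusters rose and 44 fell, and the difference of medians was 0.068. Omitting each replicate in turn moved that difference between -0.054 and 0.014, the regions called at clustered sites between 64 and 70 higher and 68 and 75 lower, and the clusters between 51 and 57 higher and 60 and 68 lower. The replicate block, which pairs libraries by experiment, gave 68 regions higher and 75 lower, 55 clusters higher and 65 lower, and changed no call of a named cluster. With DESeq2, with no filter, with sites at an FDR under 0.01 and without scaffold sites, every count stayed within 1.5 times of the value reported. The omission of scaffolds and the split by gene start were chosen after seeing the data. The sign of the difference of medians and the balance of gains and losses were thus not stable across these settings, and of the clusters recomputed singly none called in the reported fit changed sign. The causes were not tested. Depth in regions was 2745451 to 3902301 reads in the RANKL libraries, and its effect on the calls was not tested.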
